A study of Mus musculus with 16 samples.

Results

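Medullary thymic epithelial cells with high surface MHC class II (mTEChi) were compared with those with low MHC class II (mTEClo), both from wild-type mice. The comparison rests on 6 of the 16 libraries of the series, 3 of mTEChi and 3 of mTEClo, which were taken by their group names in the table of read counts. All 6 came from thymus of mice labelled psmb11 +/+ and, for strain, C57BL/6-derived BAC; no treatment is named. The other 10 libraries are of the same cells from psmb11 -/- mice (KO) and of cortical thymic epithelial cells (cTEC). Per the labels' protocols, cells were sorted as negative for CD45, a surface protein of blood cells, positive for the epithelial protein EpCAM and for the lectin UEA1, and negative for Ly51. How the MHC class II gate was set is not given in the sources used here. Labels disagree on the mice, with 11 thymi and an age of 6 to 8 weeks in some fields and 14 mice of 7 days in the protocol, and how many mice a library pools is not stated. Where nothing says that libraries came from separate mice, p-values measure only the spread between these libraries, which may be technical.

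The medulla of the thymus is where developing T cells meet self proteins before they leave. Its epithelial cells transcribe genes that otherwise belong to single organs, under the regulators Aire and Fezf2, and show the peptides on MHC molecules so that T cells that bind them too well are deleted or become regulatory. Cells high in MHC class II include the Aire-expressing ones, and the fraction low in MHC class II is a mixture of progenitors, CCL21-producing cells and cells that have passed the Aire stage and taken on the look of tuft, skin or other peripheral epithelia.

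Gene counts per library ranged from 64753610 to 130128367, so that 3 counts, the lowest number read here as a signal, correspond to at most 0.0431 CPM (counts scaled per 1000000 of the library). Replicates of a group were close, with Pearson correlations of log2 CPM across genes of 0.997 to 0.999, but differed by more than counting noise (chi-square per gene of 17.9 to 33.8 between pairs). The share of reads assigned to no gene was 23.2% to 23.7% in mTEChi and 17.6% to 19.1% in mTEClo. Psmb11, the gene removed in the KO mice, was at 8.06, 12.96 and 8.4996 CPM in the mTEClo libraries and at 9.41, 11.8 and 8.601 CPM in the mTEChi libraries, and these groups overlapped.

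Most of the transcriptome differed between mTEChi and mTEClo. Of 19256 genes tested by edgeR's quasi-likelihood test, 80.9% passed a Benjamini-Hochberg adjusted p of 0.05, with 8276 genes (43.0%) higher in mTEChi and 7302 (37.9%) lower. Because so many genes pass, a gene is called higher or lower below only if it also differs at least 2-fold. By that rule 6209 genes (32.2%) were higher in mTEChi and 2373 (12.3%) lower, and the counts of each gene list below are to be read against these shares. The excess of higher genes grew with the size of the difference. At least 8-fold differences were found in 3499 higher and 212 lower genes, and at least 32-fold differences in 1819 higher and 2 lower genes. Many low genes entered the test through the mTEChi libraries alone, so these classes lean to the higher side. Of the genes tested, 575 had 0 counts over the mTEClo libraries and none did over the mTEChi libraries. Among 16284 genes with a mean of at least 1 CPM, 4054 were at least 2-fold higher and 2267 lower. These are bulk libraries, so fewer cells of a type and less RNA per cell cannot be told apart.

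How the libraries are scaled moves every fold change by the same step. The median log2 fold change over all genes was 0.06 with the TMM scaling used here, 0.11 with RLE size factors, 0.30 with library totals alone and 0.31 with upper-quartile scaling. The share of calls at an adjusted p of 0.05 that were higher in mTEChi was 53.1% with TMM, against 65.1% with library totals, 66.1% with the upper quartile and 62.1% on the authors' RPKM values. A 2-fold difference is larger than this step, but genes near 2-fold can cross that line. Genes at least 2-fold higher numbered 6209 with TMM, 6760 with library totals and 6814 with the upper quartile. Genes at least 2-fold lower numbered 2373, 1745 and 1706 in the same order. The other scalings move all genes upward, so that a gene slightly below 0 with TMM can turn.

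The direction of the calls depended on how abundant a gene was. Among 5042 genes with a mean of 1 to 10 CPM, 53.0% were higher in mTEChi and 9.58% lower. Among 8699 genes of 10 to 100 CPM the shares were 12.9% and 14.9%, and among 2483 genes of 100 to 1000 CPM they were 10.1% and 18.8%. Of the 60 genes at 1000 CPM or more, 11.7% were higher and 36.7% lower. Low genes were thus mostly higher in mTEChi and abundant genes more often lower. Genes below 1 CPM are not compared in this way, because many entered the test through the mTEChi libraries alone. A mean of 1 to 10 CPM can also be reached through the mTEChi libraries alone.

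**Figure D1:**
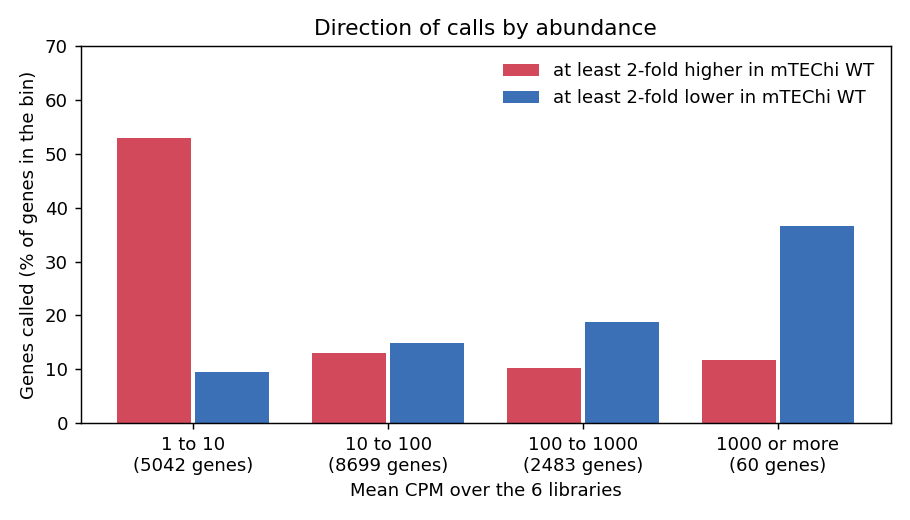
Share of genes called at least 2-fold higher (red) or lower (blue) in wild-type mTEChi against mTEClo, in percent of the genes in each bin of mean CPM over the 6 libraries. The share of higher genes falls from 53.0% at 1 to 10 CPM to 11.7% at 1000 CPM or more, and the share of lower genes rises from 9.58% to 36.7%.

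More genes were detected in mTEChi. After every library was thinned to 64753610 counts, 20809, 20619.7 and 20904 genes had at least 1 count in the mTEChi libraries and 18669, 18509 and 18203 in the mTEClo libraries. The groups did not overlap, and the difference of their means was 2317 genes (two-sided exact permutation test, p = 0.1, the smallest that 3 against 3 allow). The 10 most abundant genes took 6.09 ± 0.157% of the counts in mTEChi and 5.51 ± 0.112% in mTEClo (SD, n = 3 each), and the 100 most abundant took 16.3 ± 0.325% and 17.7 ± 0.167%. The order of the groups therefore turned with the number of genes counted.

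Markers of other cell types come before the gene groups, since some of them differed between the sorted groups; whether their RNA came from other cells or from the medullary cells themselves was not tested. Epcam, the epithelial gene used in the sort, was at 935, 879 and 906 CPM in mTEClo and at 684, 711 and 725 CPM in mTEChi, and Krt8, an epithelial keratin, was at 1393, 1419 and 1305 and 1321, 1332 and 1408 CPM. Of 15 markers of dendritic cells and macrophages, 12 were higher in mTEChi and 0 lower, and their summed level ran from 106 to 111 CPM in mTEClo and from 609.9 to 634 CPM in mTEChi. Lyz2, a lysozyme of macrophages, made up most of that sum in mTEChi, at 37.3, 35.5 and 41.5 CPM in mTEClo and 421, 431 and 416 CPM in mTEChi. Flt3, a receptor of dendritic cells and their precursors, was at 0.376, 0.489 and 0.328 and 12.2, 14.5 and 10.9 CPM. None of these 15 markers was at 0 over either group.

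The lymphoid markers gave lower sums. Of 6 B cell markers, 5 were higher in mTEChi and 0 lower, with summed levels of 22.5 to 26.9 CPM in mTEClo and 76.6 to 85.2 CPM in mTEChi. Of 16 thymocyte markers, 6 were higher and 0 lower, with summed levels of 119 to 177 CPM in mTEClo and 258 to 356 CPM in mTEChi. Ptprc, which encodes CD45, was at 26.1, 28.7 and 25.9 and 25.9, 15.5 and 13.3 CPM, and these groups overlapped. Erythroid RNA summed to 1.33 to 1.68 CPM in mTEClo and 16.7 to 17.7 CPM in mTEChi, most of it Alas2, and both alpha-globin genes had 0 counts in all 6 libraries. The alpha-globin genes are near-identical copies, and no level is read from these 0 counts. Endothelial markers gave 0 higher and 1 lower of 8, and fibroblast and pericyte markers 4 higher and 5 lower of 10. The part of these markers in the results that follow was not tested.

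The MHC class II genes are the group by which the cells were sorted, so their difference checks the labels and is no finding. H2-Aa, an alpha chain, was at 2097, 2186 and 2182 CPM in the mTEClo libraries and at 5948, 5862 and 6011 CPM in the mTEChi libraries, a log2 fold change of 1.46 (SE 0.06, edgeR adjusted p = 1.06e-09). The beta chain H2-Ab1 had a log2 fold change of 0.89 (SE 0.07, edgeR adjusted p = 2.05e-07), under 2-fold. H2-Eb2, a further beta chain of the locus, stood far apart from the other chains, at 61.1, 68.5 and 67.4 CPM in mTEClo and 1056, 1066 and 998 CPM in mTEChi, a log2 fold change of 3.99 (SE 0.07, edgeR adjusted p = 3.55e-12).

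Around the chains, the list holds the genes that load peptides and control class II. Of these 18 genes, without the 4 chains, 10 were higher in mTEChi and 3 lower, with a median log2 fold change of 1.16 against 0.06 over all genes. Cd74, the invariant chain that guards the peptide groove, was at 6281, 6303 and 5754 CPM in mTEClo and 14591, 14271 and 15756 CPM in mTEChi. The loading factor H2-DM and its inhibitor H2-DO behaved unequally. H2-Oa and H2-Ob, the chains of the inhibitor, had log2 fold changes of 2.45 and 2.98, H2-DMb2 one of 1.54, H2-DMb1 one of 0.68 and H2-DMa one of 0.04 (edgeR adjusted p = 0.539). H2-DMa was at 126, 127 and 129.8 CPM in mTEClo and at 127, 128 and 139 CPM in mTEChi, and the groups overlapped.

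Ciita, the transactivator of class II genes, was higher in mTEChi (187, 217 and 179 against 450.2, 479.9 and 505 CPM in mTEClo and mTEChi), as was Rfx5 (log2 fold change of 1.04), while Rfxap, another subunit of the same RFX complex, was lower (-1.10). The lysosomal proteases changed places. Cathepsin L (Ctsl), which cuts the invariant chain in cortical epithelium, was at 1680.4, 1906 and 1888 CPM in mTEClo and 210.2, 210.3 and 219 CPM in mTEChi, a log2 fold change of -3.10 (SE 0.07, edgeR adjusted p = 1.01e-11). Cathepsin S (Ctss), which does so in dendritic and B cells, was at 53.6, 54.2 and 50.4 and 236, 229 and 222 CPM, a log2 fold change of 2.12 (SE 0.06, edgeR adjusted p = 3.02e-11). Ctsh and the thiol reductase Ifi30 were also higher, with log2 fold changes of 2.65 and 2.03, and Ctsd was lower at -1.13. Cd83, which keeps class II at the surface of thymic epithelium, was at 3.49, 3.45 and 3.05 CPM in mTEClo and 41.4, 40.8 and 35.5 CPM in mTEChi.

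Promoters of class II genes carry an X box, bound by the RFX complex, and a Y box, bound by NF-Y, and the sites are shown because they are the sequences these genes are known to share. Each line gives the 170 bases before the RefSeq start of the gene (build GRCm38.p6), 5′ to 3′ on the gene's strand, with capitals where the letters of the X box core (AG, 2 bases of any kind, AC, 2 bases of any kind, ATG) or of the Y box core (GATTGG, on either strand) were found.
H2-Aa, chr17:34287824-34287993, minus strand: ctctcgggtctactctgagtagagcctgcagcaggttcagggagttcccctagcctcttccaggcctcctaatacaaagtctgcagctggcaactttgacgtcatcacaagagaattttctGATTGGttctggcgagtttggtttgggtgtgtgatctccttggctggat
H2-Eb1, chr17:34305697-34305866, plus strand: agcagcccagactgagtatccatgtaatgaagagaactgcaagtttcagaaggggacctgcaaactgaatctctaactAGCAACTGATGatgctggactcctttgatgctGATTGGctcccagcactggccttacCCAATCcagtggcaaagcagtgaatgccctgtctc
H2-Eb2, chr17:34325505-34325674, plus strand: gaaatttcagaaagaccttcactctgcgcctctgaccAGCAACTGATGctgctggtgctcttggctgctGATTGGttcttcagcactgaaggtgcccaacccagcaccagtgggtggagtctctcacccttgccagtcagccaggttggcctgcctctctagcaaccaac
H2-DMb1, chr17:34153021-34153190, plus strand: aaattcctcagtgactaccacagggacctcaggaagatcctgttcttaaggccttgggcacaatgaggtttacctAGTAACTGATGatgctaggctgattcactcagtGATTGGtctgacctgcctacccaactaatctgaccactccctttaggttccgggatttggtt
H2-DMb2, chr17:34145079-34145248, plus strand: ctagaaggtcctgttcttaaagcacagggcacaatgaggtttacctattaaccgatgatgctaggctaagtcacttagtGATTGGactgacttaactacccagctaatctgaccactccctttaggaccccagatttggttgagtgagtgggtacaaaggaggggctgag
H2-Oa, chr17:34092209-34092378, plus strand: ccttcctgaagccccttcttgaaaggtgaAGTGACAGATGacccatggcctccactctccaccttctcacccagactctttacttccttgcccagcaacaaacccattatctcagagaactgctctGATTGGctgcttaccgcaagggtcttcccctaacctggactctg
H2-Ob, chr17:34238735-34238904, plus strand: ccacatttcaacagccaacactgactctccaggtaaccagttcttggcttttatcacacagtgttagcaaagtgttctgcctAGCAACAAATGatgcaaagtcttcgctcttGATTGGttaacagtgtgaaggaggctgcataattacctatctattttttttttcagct

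In H2-Eb1, H2-Eb2, H2-DMb1, H2-Oa and H2-Ob the X box core began 92, 133, 95, 141 and 88 bases before the start. The 7 windows printed are those with a core among the genes chosen for printing. Each held a Y box core, and in H2-Aa and H2-DMb2 the X box letters as searched were not present. Rfx5 and Rfxank, which had a Y box core within 250 bases, were not among the genes chosen. The windows of Ctss and of both RefSeq starts of H2-DMa held neither core within 170 bases and are not printed. Within 250 bases before the start, the X box core was found in 5 of the 15 list members with a RefSeq promoter, against 3.0% of 27025 genes. The Y box core was found in 10 of 15, against 16.6%. Both motifs were searched on both strands, and in these windows they did not overlap. H2-Eb2, with the largest fold of the chains, and H2-DMb1, under 2-fold, both held both cores. A match of letters is a description and does not show that a factor binds there.

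MHC class I presentation stayed closer to equal. Of 22 members, 2 were higher in mTEChi and 0 lower, shares below the 32.2% and 12.3% of all genes, and the median log2 fold change was 0.19. The heavy chain H2-K1 was at 4124, 4024 and 3729 CPM in mTEClo and 3542, 3747 and 4012 CPM in mTEChi, with overlapping groups. Both peptide transporters had log2 fold changes under 2-fold on the lower side (-0.70 for Tap1 and -0.73 for Tap2). Psme2, a subunit of the PA28 cap of the proteasome, was higher at 1.25. Ubd, a ubiquitin-like protein also called FAT10 that sends proteins to the proteasome, was the other, at 182, 192 and 181 CPM in mTEClo and 2021, 2003 and 1847 CPM in mTEChi, a log2 fold change of 3.40 (SE 0.07, edgeR adjusted p = 5.78e-12).

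Ligands that costimulate T cells were higher in mTEChi for the CD28 and TNF receptor families, and lower or under 2-fold for several inhibitory ones. Of 19 ligands tested, 9 were higher and 2 lower. Cd80 (chromosome 16, 38458933 to 38486932, mm10), a ligand of CD28, was at 8.41, 7.94 and 7.51 CPM in mTEClo and 164, 158 and 154 CPM in mTEChi, a log2 fold change of 4.32 (SE 0.07, edgeR adjusted p = 2.09e-12). Cd86, its partner ligand, was at 1.04, 1.64 and 1.05 and 33.2, 41.8 and 34.95 CPM. All mTEChi values of both genes lay far above all mTEClo values. Icosl, the ligand of ICOS, was at 63.2, 65.2 and 61.8 CPM in mTEClo and 551, 535 and 582 CPM in mTEChi.

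Within the TNF family, Cd70, which binds CD27 on thymocytes, rose from 1.26 ± 0.523 to 31.9 ± 5.9003 CPM (mean ± SD, n = 3 each, as in the values below), and Tnfsf9 (4-1BB ligand) from 3.98 ± 0.973 to 37.9 ± 5.37 CPM. Tnfsf10, the death ligand TRAIL, went the other way, from 175 ± 4.53 to 44.5 ± 3.62 CPM, as did the galectin Lgals9, from 480.1 ± 9.69 to 91.4 ± 4.99 CPM. Cd274, the gene of PD-L1, was at 447, 366 and 462 CPM in mTEClo and 242, 253 and 266 CPM in mTEChi, a log2 fold change of -0.75 (SE 0.08, edgeR adjusted p = 5.56e-06), and Pdcd1lg2, the gene of PD-L2, at 52.3, 53.2 and 56.4 and 52.98, 51.7 and 51.001 CPM. The 2 ligands of PD-1 were thus not among the genes called higher.

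Aire itself (chromosome 10, 78030022 to 78043610, mm10) was at 18.5, 12.2 and 8.15 CPM in the mTEClo libraries and at 1478, 1458 and 1648 CPM in the mTEChi libraries, a log2 fold change of 6.88 (SE 0.25, edgeR adjusted p = 3.07e-10). The lowest mTEChi library exceeded the highest mTEClo library many times over. Fezf2 (chromosome 14, 12341892 to 12345865, mm10), the second regulator of tissue-restricted genes, was at 233, 233 and 197 and 645, 636 and 660.4 CPM, a log2 fold change of 1.55 (SE 0.07, edgeR adjusted p = 2.20e-09). Its groups did not overlap either, but Fezf2 was already well above the floor in every mTEClo library.

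Most partners through which Aire is known to act were not called higher. Of 21 partners and chromatin cofactors, 3 were higher in mTEChi and 1 lower (14.3% and 4.76%, against 32.2% and 12.3% of all genes). A further 11 were lower under 2-fold. The higher share is near the 12.9% of all genes of 10 to 100 CPM, so it is not read as particular to the partners. Dnmt3l, a regulatory DNA methyltransferase without catalytic activity of its own, was at 0.547, 0.776 and 0.328 CPM in mTEClo and 46.6, 45.6 and 43.7 CPM in mTEChi, a log2 fold change of 6.36 (SE 0.19, edgeR adjusted p = 4.59e-11). Sirt1, the deacetylase that acts on Aire, was at 73.6, 71.4 and 83.6 and 632, 669.6 and 557 CPM. Top2a, the third, is also a gene of dividing cells and is counted again with them below. The kinase gene Cdk9 had a log2 fold change of -0.58, Crebbp one of -0.46 and Chd4 one of -0.43, all under 2-fold. Xrcc5, a subunit of the Ku complex, was lower at -1.69, while its partner Xrcc6 had -0.22, a size at which the sign turned with library totals (0.0177) or the upper quartile (0.0358).

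Among transcription factors of the medulla, Irf4 was at 17.6, 16.2 and 18.7 CPM in mTEClo and 158, 179 and 163 CPM in mTEChi, and Irf8 at 108, 111 and 103 and 377, 398 and 417 CPM. Foxn1, the master regulator of thymic epithelium, was also higher, with a log2 fold change of 1.03 (SE 0.06, edgeR adjusted p = 2.38e-08). Relb, the NF-kB subunit that medullary epithelium needs, stood just below the 2-fold line at 0.97. Spib, a regulator that limits medullary maturation, had 0.46, and Ehf, an epithelial factor, -0.84.

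**Figure D2:**
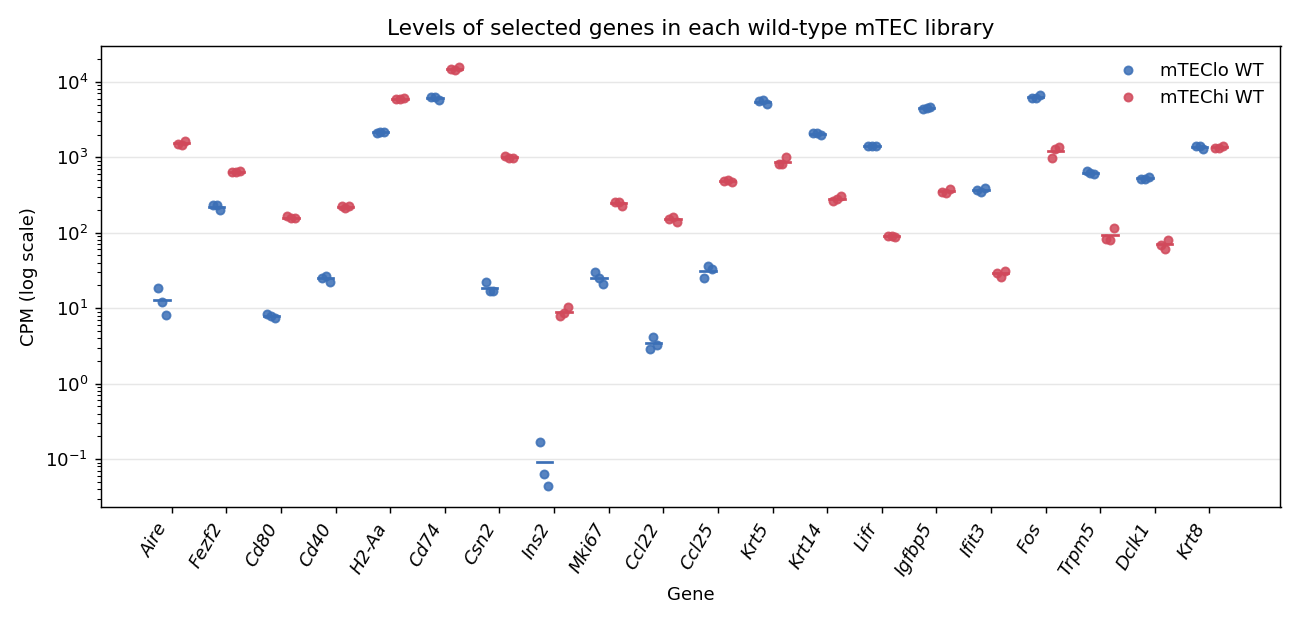
Levels of 20 selected genes in each wild-type library, in CPM on a log axis; dots are the 3 libraries of mTEClo (blue) and of mTEChi (red), and bars their means. Aire averages 12.97 CPM in mTEClo and 1528 CPM in mTEChi, Krt5 5415 and 878 CPM, and the dots of Krt8 overlap.

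Signals from lymphoid cells reach these cells through RANK, CD40 and the lymphotoxin beta receptor, which feed the NF-kB pathway. Of 29 genes of that pathway, 12 were higher and 5 lower (41.4% and 17.2%, against 32.2% and 12.3% of all genes), with a median log2 fold change of 0.81. The receptors moved in opposite directions. Cd40 was at 25.3, 26.7 and 22.6 CPM in mTEClo and 226, 214 and 224 CPM in mTEChi, a log2 fold change of 3.16 (SE 0.07, edgeR adjusted p = 1.01e-11), and Tnfrsf11a, the gene of RANK, at 151, 144 and 135 and 282, 311 and 322 CPM. Ltbr, the lymphotoxin beta receptor, was at 119, 119 and 106 and 44.4, 46.5 and 49.7 CPM, a log2 fold change of -1.29 (SE 0.07, edgeR adjusted p = 6.35e-09). Tnfrsf11b, the soluble decoy of the RANK ligand (osteoprotegerin), rose from 25.96 ± 3.396 to 228 ± 6.28 CPM.

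Downstream, the noncanonical subunit Nfkb2 was higher at 1.06 and Rel at 1.48, while Rela had -0.61 and Nfkb1 -0.39, under 2-fold. The inhibitors split as well. Nfkbia and Nfkbie were higher (1.19 and 1.17), and Tnfaip3, the deubiquitinase A20, and Bcl3 were lower (-1.70 and -1.27). The adaptor Traf6 was higher at 1.29 and Traf5 lower at -2.27.

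Tissue-restricted genes were mostly higher in mTEChi. The table held 75 of them, of which 73 were tested, 59 were higher and 2 lower. Tests of low genes could be reached through mTEChi alone. Of the 61 genes with a mean of at least 1 CPM, 48 were higher and 2 lower, against 24.9% and 13.9% of all genes at that level. This mean is taken over both groups, so it too can be reached through mTEChi alone, and the limit remains. Counts by organ in the next paragraphs are over all members tested, so the same limit holds for them. The list was drawn up as a set of known organ genes, with earlier results of these data known.

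Milk proteins gave the highest levels. Csn2, the gene of beta-casein, was at 22.6, 16.99 and 16.8 CPM in mTEClo and 1050.0, 993 and 968 CPM in mTEChi, a log2 fold change of 5.74 (SE 0.12, edgeR adjusted p = 6.65e-12). Csn1s2a, another casein gene, was at 0.125, 0.0744 and 0.0765 CPM in mTEClo and 32.01, 33.5 and 32.9 CPM in mTEChi. Wap, the gene of whey acidic protein, had 0 counts in all mTEClo libraries and 3.91, 2.55 and 3.64 CPM in the mTEChi libraries, at least 307-fold higher when 3 counts summed over the mTEClo libraries are taken as the floor. One member of the group went the other way: the amylase gene Amy1 was at 6.65, 4.97 and 6.43 CPM in mTEClo and 2.49, 2.03 and 2.47 CPM in mTEChi.

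Of the pancreatic hormones, Ins2, an insulin gene, was at 0.171, 0.0638 and 0.0437 CPM in mTEClo and 7.87, 8.72 and 10.3 CPM in mTEChi, a log2 fold change of 6.59 (SE 0.33, edgeR adjusted p = 4.24e-09), and Ins1, the other insulin gene, had 0 counts in mTEClo and 0.191, 0.128 and 0.532 CPM in mTEChi (at least 25.8-fold). Ppy, pancreatic polypeptide, was at 0.399, 0.489 and 0.2403 and 15.4, 14.7 and 17.04 CPM. Not every hormone gene followed. Iapp, amylin, was at 42.1, 39.2 and 50.04 CPM in mTEClo and 37.02, 31.2 and 38.8 CPM in mTEChi, and Ghrl, ghrelin, at 6.75, 4.73 and 7.55 and 4.37, 3.01 and 3.09 CPM. Ghrl had a log2 fold change of -0.86 and Iapp one of -0.30, both under 2-fold. The edgeR adjusted p of Iapp was above 0.05 without mTEChi replicate 1 (0.0529) or 2 (0.150) or mTEClo replicate 3 (0.0705), with RLE size factors (0.0533), library totals (0.624) or the upper quartile (0.733), and in the fit of all 16 libraries (0.0942). The antimicrobial lectin Reg3g was already abundant in mTEClo, at 369, 394 and 318 CPM, and was at 577, 587 and 617 CPM in mTEChi.

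Liver and plasma proteins included Alb, albumin, at 0.342, 0.191 and 0.0655 CPM in mTEClo and 23.4, 22.3 and 22.1 CPM in mTEChi, and Apob, the apolipoprotein of low-density lipoprotein, at 1.41, 0.903 and 0.961 and 99.5, 86.1 and 99.8 CPM. Of 12 tested liver genes, 10 were higher. Crp, C-reactive protein, was the exception that was lower, at 63.7, 72.8 and 63.3 and 23.6, 21.2 and 19.3 CPM, a log2 fold change of -1.64 (SE 0.09, edgeR adjusted p = 7.21e-09). Among eye proteins, the lens crystallin Cryaa was at 0.296, 0.0638 and 0.186 CPM in mTEClo and 25.9, 30.3 and 25.8 CPM in mTEChi, and Rbp3, the retinal autoantigen IRBP, had 0 counts in mTEClo and 0.677, 1.05 and 0.892 CPM in mTEChi (at least 79.5-fold).

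Of the nervous system and endocrine genes, Nts, neurotensin, was at 0.673, 1.16 and 0.3496 CPM in mTEClo and 109.6, 108 and 105 CPM in mTEChi, and Tg, thyroglobulin, at 0.878, 1.23 and 1.29 and 30.9, 27.4 and 23.99 CPM. Gad1, a glutamate decarboxylase, was at 5.11, 5.39 and 5.38 and 50.5, 47.5 and 44.7 CPM. The myelin genes Mbp and Mog were not called at 2-fold: Mbp had a log2 fold change of 0.80 and Mog, at no more than 0.259 CPM in any library, one of 0.86 (edgeR adjusted p = 0.256). All 7 germ cell genes of the list were higher, from 2.41 for Spag6 to 4.25 for Ddx4. Of 6 muscle genes 5 were higher, the acetylcholine receptor subunit Chrna1 among them (2.67, 2.28 and 2.63 against 17.4, 13.9 and 14.4 CPM).

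**Figure D3:**
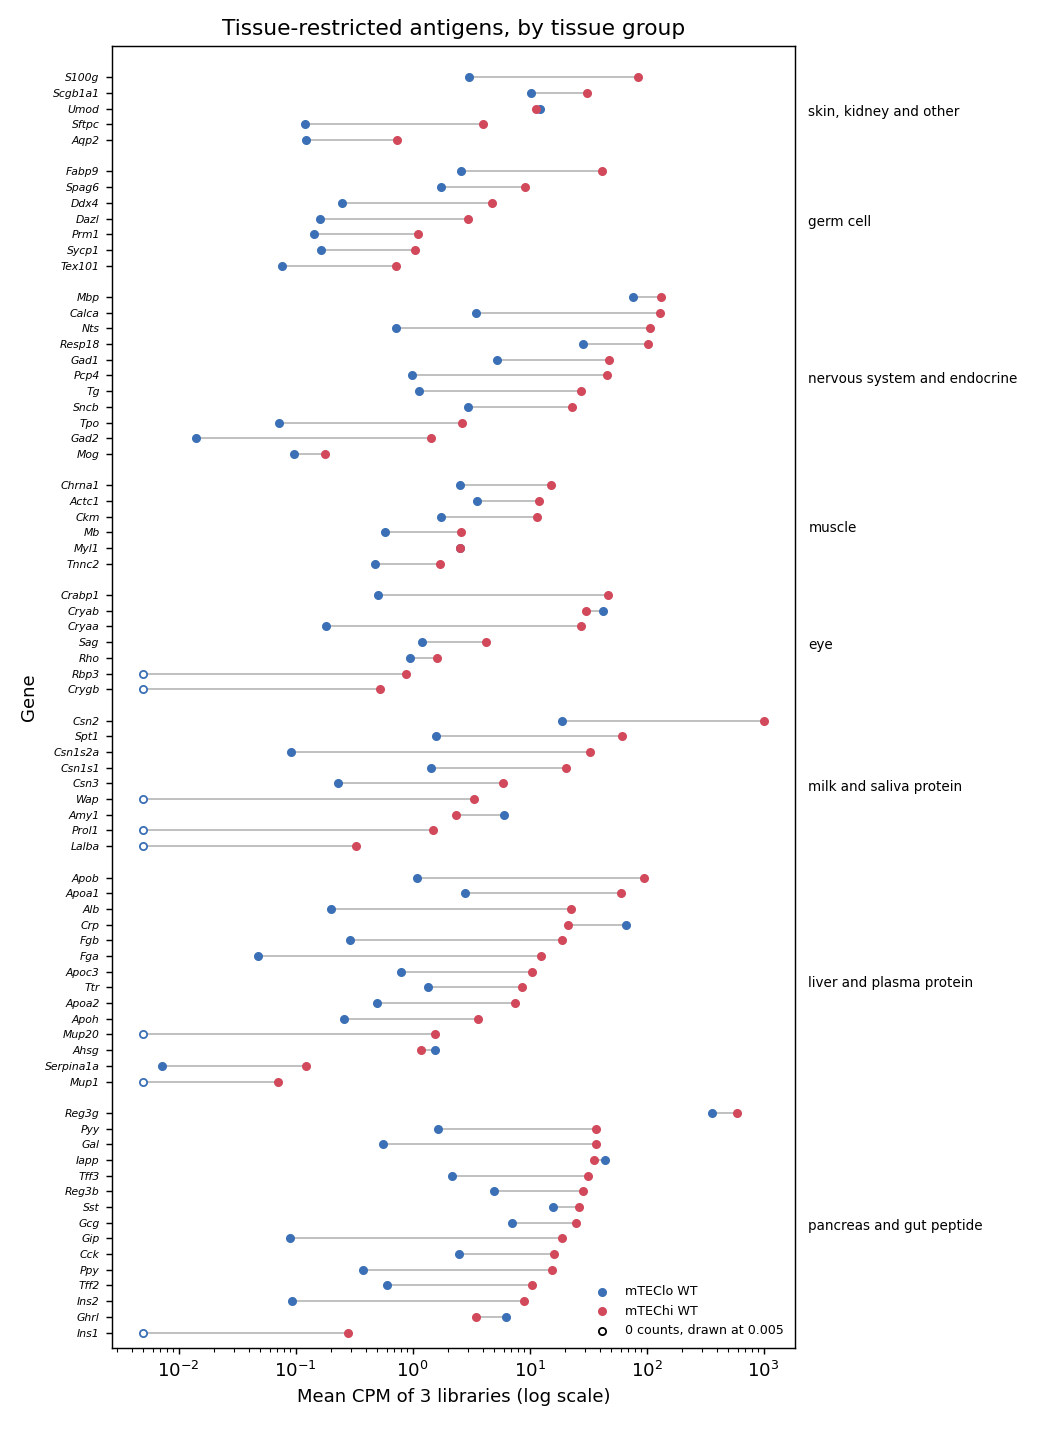
Mean CPM (log axis) of tissue-restricted genes in wild-type mTEClo (blue) and mTEChi (red), grouped by the organ that normally uses them; open symbols mark genes with 0 counts in a group, drawn at the left edge. Most red points lie to the right of the blue point of the same gene, and the reverse order is seen for Crp, Amy1, Iapp, Ghrl, Cryab, Umod and Ahsg.

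Genes outside the lists were named by rank among those that were called, did not overlap and averaged 5 CPM or more where they were higher. The first 8 by fitted fold had 0 counts in all 3 mTEClo libraries, so that their order depends on the fit and each fold printed is a lower bound. Marco, a scavenger receptor of macrophages, was at 17.2, 15.7 and 17.6 CPM in the mTEChi libraries, at least 1534-fold higher. Il9, a cytokine, was at 7.7999, 6.43 and 6.14 CPM, the sodium channel gene Scn10a of sensory neurons at 6.43, 5.07 and 4.88 CPM, the bone regulator Sp7 at 6.03, 6.38 and 3.74 CPM and the pancreatic elastase Cela3b at 5.13, 4.93 and 4.98 CPM. Fam26d and the muscle LIM protein gene Csrp3 were also among the 8, at 729- and 473-fold or more. Mcpt4, a mast cell protease, came next in that order with a ratio of CPM of 1716 (95% counting interval 475 to 14178) and Clec3a, a lectin of cartilage, with one of 1675 (300.3 to 66203), each on few mTEClo counts.

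Other higher genes were named by their p-values. Il13, the type 2 cytokine, was at 0.638, 0.776 and 0.503 CPM in mTEClo and 145, 155 and 155 CPM in mTEChi, a log2 fold change of 7.88 (SE 0.11, edgeR adjusted p = 2.09e-12). Prg4, the lubricin of joints, rose from 2.62 ± 0.146 to 134 ± 6.74 CPM, and S100g, a calcium-binding protein of gut and kidney, from 3.01 ± 0.0973 to 83.97 ± 0.148 CPM. Coch (cochlin of the inner ear), Crhbp (a binding protein of corticotropin-releasing hormone), Apoa4 (an intestinal apolipoprotein), Adgb and the transcription factor Tfap2b had log2 fold changes of 6.66, 5.04, 4.22, 4.34 and 4.54. In absolute level, beside Cd74, H2-Aa, H2-Eb1, Ubd, Aire and Csn2, the gains in mTEChi were greatest for Srgn (a proteoglycan core protein, 164 to 1726 CPM), Sspo (98.4 to 1507 CPM), Sgpl1 (sphingosine phosphate lyase, 572 to 1607 CPM) and the chaperone Hspa5 (1275 to 2639 CPM).

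Genes called in one direction lay beside each other on the chromosomes. The next tested gene along the chromosome was also higher for 45.2% of higher genes, against 32.2% over all neighbours, and also lower for 21.6% of lower genes, against 12.4%. The longest unbroken run of higher genes held 24 genes on chromosome 5 from 86916639 to 88506049 (mm10), with the Ugt2 and Sult1 enzymes of detoxification, the caseins, salivary proteins and the enamel proteins Amtn, Ambn and Enam. A run of 18 on chromosome 14 (55941451 to 56525031) held mast cell proteases and granzymes from Cma1 to Gzmb, and another of 18 on chromosome 7 (43824544 to 44220703) held kallikreins from Klk6 to Klk1b5. Reads of near-identical copies can be split between the members of such families, so the share of each copy is uncertain, and neighbours in a family share that uncertainty.

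Gene families were counted among members with a mean of at least 1 CPM, with the same limit as the tissue-restricted genes. They are read against 24.9% higher and 13.9% lower of all genes at that level. Of 26 kallikrein-type genes, 20 were higher and 0 lower, among them Klk4, a protease of enamel (0.311 CPM on average in mTEClo and 43.6 in mTEChi). Of 15 small proline-rich and late envelope genes of the skin barrier, 13 were higher and 0 lower. Cytochrome P450 genes gave 31 higher and 4 lower of 52, and keratins 29 and 5 of 45. The few lower keratins were abundant, and summed keratin RNA was 13643 to 15166 CPM in the mTEClo libraries and 6376 to 7246 CPM in the mTEChi libraries. Olfactory receptors stayed near the floor: of 1122 in the table only 113 could be tested, and over all of them the libraries summed to 24.6 to 27.6 CPM in mTEClo and 88.9 to 103.2 CPM in mTEChi. Zinc finger genes of the Zfp series gave 10 higher and 70 lower of 335. Protocadherins, cell adhesion molecules of neurons, gave 5 higher and 32 lower of 49. On chromosome 18, 17 beta protocadherins and Slc25a2 formed an unbroken run of 18 lower genes from 37334028 to 37638723. Outside that cluster, Pcdh10 and Pcdh15 were higher (2.81 and 2.61).

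Hox genes, which mark position along the body axis, took both directions. Of 37 tested, 24 were higher in mTEChi and 8 lower, and of the 20 with a mean of at least 1 CPM, 12 were higher and 5 lower. Among the lower ones were the anterior genes Hoxa2, Hoxa3, Hoxa4 and Hoxa5, which neighbour each other on chromosome 6 among the genes tested, and Hoxb2. Hoxa3, which the thymus needs to form, was at 22.6, 21.1 and 22.003 CPM in mTEClo and 1.96, 1.701 and 1.87 CPM in mTEChi, a log2 fold change of -3.58 (SE 0.11, edgeR adjusted p = 9.54e-11). In the same cluster, the posterior genes Hoxa9, Hoxa10 and Hoxa11 were higher (3.79, 3.68 and 3.90), at 0.972, 1.74 and 0.509 CPM in mTEChi. With DESeq2 the adjusted p of Hoxa9 was 0.0655. These posterior genes averaged under 1 CPM over the 6 libraries, where many genes entered the test through mTEChi alone, so a split within the cluster is uncertain. Elsewhere, Hoxb9 rose from 0.272 ± 0.188 to 11.6 ± 1.12 CPM and Hoxd4 from 0.922 ± 0.338 to 20.1 ± 1.18 CPM.

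Genes of immature and CCL21-type medullary cells made up the opposite pole. Of 29 tested, 1 was higher in mTEChi and 20 were lower, and the median log2 fold change was -1.55. The basal keratin Krt5 was at 5526, 5672 and 5049 CPM in mTEClo and 805, 817 and 1012 CPM in mTEChi, a log2 fold change of -2.63 (SE 0.10, edgeR adjusted p = 3.32e-10), and its pairing partner Krt14 at 2091, 2087 and 1957 and 263, 276 and 305 CPM. Trp63, the regulator of stratified epithelium, was at 578, 609 and 599.9 and 138, 149.7 and 135 CPM, and Sox4 and Id3 were lower as well (-1.46 and -2.76). The 3 Ccl21 genes had 0 counts in all libraries; they are near-identical copies, and no level is read from this.

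At the surface, Lifr, the receptor of leukemia inhibitory factor, was at 1393, 1409 and 1396 CPM in mTEClo and 91.7, 90.5 and 88.2 CPM in mTEChi, a log2 fold change of -3.96 (SE 0.06, edgeR adjusted p = 2.09e-12). Il6st, the signal chain that Lifr shares with other cytokine receptors, fell with it, from 667 ± 4.87 to 74.9 ± 1.404 CPM. Pdpn (podoplanin), the stem cell antigen gene Ly6a and Ccrl1, a scavenger receptor of chemokines, were lower as well, with log2 fold changes of -2.97, -2.46 and -2.92. Igfbp5, which binds insulin-like growth factors, was at 4331, 4446 and 4701 and 349, 336 and 383 CPM, and Apoe at 1932, 1864 and 1752 and 123, 128 and 145 CPM. Cldn3 and Cldn4, claudins that have been used to mark medullary precursors, had 0.66 and 0.92 instead, higher under 2-fold.

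Lower genes outside the lists were named in the same way. Gas1, a coreceptor of Hedgehog ligands, was at 732, 698 and 659.6 CPM in mTEClo and 18.4, 17.7 and 18.3 CPM in mTEChi, a log2 fold change of -5.26 (SE 0.07, edgeR adjusted p = 2.09e-12), the largest fall of any gene named by the rule. Boc, another Hedgehog coreceptor, was at 609.8, 589 and 576 and 25.4, 24.8 and 28.2 CPM. Fst (follistatin, which binds activin), Mgp (matrix Gla protein), Igfbp4, the complement protease C1s, the collagen-binding proteoglycan Fmod, Antxr1 and Wfikkn2 fell too, with log2 fold changes of -4.53, -4.59, -3.87, -4.00, -4.07, -4.05 and -4.08. The rule also named Tril, Sult5a1, Scarf2, Myl9, Scn7a and Rtp4, whose log2 fold changes ran from -4.50 to -3.59. By absolute level, the complement component C3 fell from 4213 ± 156 to 938 ± 55.5 CPM and the actin cross-linker Flna from 2502 ± 269.6 to 398 ± 29.9 CPM.

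Laminins were mostly lower, collagens were more often lower than higher, and integrins had shares near those of all genes. Of 34 laminins, collagens and integrins, 7 were higher in mTEChi and 15 lower. Of 10 laminin chains 7 were lower, among them Lama3 and Lamb3, chains of laminin 332 (-2.35 and -3.07). Col6a1 was at 2087, 2066 and 1914 CPM in mTEClo and 125, 121 and 138 CPM in mTEChi, Col6a2 at 1532, 1565 and 1417 and 67.1, 66.1 and 81.2 CPM, and the basement membrane collagen Col4a1 fell from 1128 ± 94.1 to 304 ± 16.7 CPM. Collagens gave 3 higher and 6 lower of 12 (25.0% and 50.0%), and integrins 3 and 2 of 12 (25.0% and 16.7%). Over all genes the shares were 32.2% and 12.3%. Itga6 and Itgb4, the integrin chains that hold basal cells to laminin 332, were the lower ones (-1.31 and -1.73), and Itga2, Itgb3 and Itgb8 the higher ones (2.09, 3.49 and 1.46). Col1a1, a collagen of connective tissue, was higher, at 7.24, 7.88 and 6.21 and 78.5, 82.9 and 104 CPM, while the fibroblast genes Dcn and Pdgfra were lower (-2.04 and -1.84).

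Tuft cells are chemosensory epithelial cells that use the taste pathway and make leukotrienes and interleukin 25, and a thymic form of them is known. Of 36 tuft cell genes, 0 were higher in mTEChi and 28 lower, with a median log2 fold change of -2.19. The cation channel Trpm5 was at 664, 615 and 602 CPM in mTEClo and 81.8, 80.3 and 116 CPM in mTEChi, a log2 fold change of -2.76 (SE 0.13, edgeR adjusted p = 1.99e-09). Dclk1, a kinase used as their marker, was at 514, 511 and 553 and 67.9, 60.8 and 81.1 CPM. Il25 was at 20.8, 26.2 and 27.5 and 2.096, 3.91 and 4.92 CPM, and the leukotriene genes Alox5 and Alox5ap had log2 fold changes of -2.72 and -3.18.

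The master regulator of the lineage moved less than its cells' genes. Pou2f3 was at 105, 103 and 99.6 CPM in mTEClo and 49.7, 54.3 and 58.8 CPM in mTEChi, a log2 fold change of -0.92 (SE 0.07, edgeR adjusted p = 1.29e-07), under 2-fold, and Gfi1b had -0.54. Of 34 taste receptor genes tested, 1 was higher and 32 were lower; the higher one, Tas1r2, was at 0.713 CPM in mTEChi. Of the 23 with a mean of at least 1 CPM, 0 were higher and 22 lower. The bitter receptors lie in clusters, and an unbroken run of 18 lower genes on chromosome 6 from 132625111 to 133055793 (mm10) held 17 of them. The shortened octamer ATGCAAA, searched on both strands as the sequence that POU factors such as Pou2f3 bind, was found within 250 bases before the start of 5 of 32 tuft genes with a RefSeq promoter, against 4.65% of all genes.

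Other cell types that the medulla imitates did not share one direction. Ciliated cell genes gave 12 higher and 1 lower of 18. Dnaic2, an arm subunit of the ciliary motor, rose from 3.73 ± 0.795 to 97.5 ± 10.1 CPM and Foxj1, the regulator of motile cilia, from 29.1 ± 3.08 to 66.5 ± 5.32 CPM. Microfold cell genes gave 7 higher and 1 lower of 16. The one that was lower was Gp2, their receptor for bacteria, at 364, 338 and 367 CPM in mTEClo and 143, 134 and 141 CPM in mTEChi, while Ccl20 and Cd52 were higher (1.54 and 4.96).

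Skin-type and neuroendocrine genes were divided within their own lists. Of 30 cornified cell genes, 9 were higher and 2 lower, near the shares of all genes. Krt10, a keratin of the upper skin layers, was at 149, 136 and 95.6 CPM in mTEClo and 208, 264 and 289 CPM in mTEChi (edgeR adjusted p = 0.0546 in the fit of all 16 libraries), and the envelope proteins involucrin (Ivl) and loricrin (Lor) had log2 fold changes of 0.03 and -0.03 (edgeR adjusted p = 0.807 and 0.901). Of 26 neuroendocrine genes, 8 were higher and 9 lower. Chga, chromogranin A of secretory granules, was lower at 195, 259 and 322 and 84.3, 75.7 and 91.4 CPM, as were Chgb and Scg2 (-1.69 and -1.84), while the regulator Insm1 was higher at 47.2, 42.2 and 39.1 and 292, 314 and 315 CPM and the granule peptide gene Vgf rose by 3.37 on the log2 scale.

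Lineage regulators of organs were mostly low. Of the 21 with a mean of at least 1 CPM, 10 were higher and 2 lower, against 24.9% and 13.9% of all genes at that level. Gata4 rose from 1.75 ± 0.166 to 22.3 ± 2.32 CPM and Cdx2, the regulator of intestine, from 1.97 ± 0.208 to 8.96 ± 1.15 CPM. Pdx1, the pancreas regulator, stayed under 1 CPM in every library. The muscle regulators differed among themselves: Myod1 had 2 counts in mTEClo, both in replicate 1, and 2.498, 1.93 and 1.596 CPM in mTEChi, while Myog was at 9.86, 10.8 and 8.46 and 8.56, 8.97 and 8.93 CPM, with overlapping groups.

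Of 26 chemokines tested, 15 were higher in mTEChi and 3 lower. The 10 among them that guide thymocytes and dendritic cells gave 6 higher and 2 lower. The ligands of CCR4, by which positively selected thymocytes scan the medulla, were among the higher ones. Ccl22 was at 2.896, 4.18 and 3.24 CPM in mTEClo and 154, 162 and 139 CPM in mTEChi, a log2 fold change of 5.46 (SE 0.12, edgeR adjusted p = 9.44e-12), and Ccl17 at 0.9805, 0.691 and 0.2403 and 10.5, 10.4 and 10.8 CPM. Xcl1, which draws XCR1-positive dendritic cells and depends on Aire in mice, was at 0.114, 0.0425 and 0.0219 and 10.9, 6.38 and 6.26 CPM. Ccl19, a ligand of CCR7, had 0.75, under 2-fold.

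The chemokines that cortical epithelium also makes split. Ccl25, the ligand of CCR9, was at 24.99, 36.3 and 33.1 CPM in mTEClo and 489, 506 and 465 CPM in mTEChi, a log2 fold change of 3.95 (SE 0.12, edgeR adjusted p = 6.60e-11). Cxcl12, the ligand of CXCR4, was at 179, 197 and 204 and 28.3, 20.8 and 20.04 CPM, a log2 fold change of -3.07 (SE 0.12, edgeR adjusted p = 4.73e-10). Cx3cl1 and Cxcl14 were lower too (-2.16 and -4.03), and Ccl5 and Cxcl13 higher (3.64 and 5.56). Dendritic cell and macrophage markers, at the summed levels given above, were higher in the same libraries, and their part in these chemokines was not tested.

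Cytokines and growth factors gave equal numbers, 12 higher and 12 lower of 30 (40.0% each, against 32.2% and 12.3% of all genes). Cytokines were mostly higher and Wnt and BMP genes mostly lower, while FGF and IGF genes took both directions (4 higher and 3 lower of 10). Of 11 cytokines 8 were higher, among them Il15, which natural killer and invariant T cells need (17.5, 17.9 and 17.8 against 51.4, 50.7 and 52.5 CPM in mTEClo and mTEChi), and Tgfb2. Il7, the survival factor of thymocytes, was one of the lower ones, at 303, 327 and 339 CPM in mTEClo and 68.6, 69.3 and 61.9 CPM in mTEChi. Of 9 Wnt and BMP genes, 7 were lower, Wnt4 (240.3, 245 and 231 against 64.1, 65.1 and 75.8 CPM) and the Wnt inhibitors Sfrp1 and Dkk3 among them. Fgfr2, the receptor of FGF7 and FGF10 that thymic epithelium needs to grow, was at 527, 503 and 527 and 35.2, 29.6 and 34.95 CPM, a log2 fold change of -3.97 (SE 0.08, edgeR adjusted p = 5.78e-12).

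In the Notch pathway, 4 genes were higher and 9 lower of 19. Of 4 ligands 3 were lower. Jag2 was at 346, 339 and 288 CPM in mTEClo and 35.8, 34.5 and 42.5 CPM in mTEChi, Jag1 at 273, 269.8 and 260.0 and 81.3, 94.1 and 90.1 CPM, and Dll1 at 90.7, 80.6 and 75.4 and 14.8, 16.8 and 16.8 CPM. The fourth, Dll4, which commits progenitors to the T lineage in the cortex, was higher, at 11.9, 14.5 and 10.4 and 51.9, 57.03 and 58.8 CPM. The receptors Notch2 and Notch3 and the target genes Hes1, Hey1 and Heyl were lower (-1.20, -2.41, -1.85, -2.58 and -1.67), and Notch4 and the target Dtx1 were higher (1.68 and 2.50). In the fit of all 16 libraries the edgeR adjusted p of Notch4 was 0.0790.

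Genes of cell division were higher in mTEChi, above all those of mitosis. Of 42 genes, 28 were higher and 0 lower, and all 16 mitotic genes were among the higher ones. Mki67, which marks dividing cells, was at 29.995, 25.1 and 20.7 CPM in mTEClo and 253, 254 and 227 CPM in mTEChi, a log2 fold change of 3.28 (SE 0.12, edgeR adjusted p = 2.31e-10), and the mitotic kinase Cdk1 at 3.47, 3.89 and 1.99 and 45.2, 47.1 and 41.6 CPM. Of 16 replication genes 8 were higher. The helicase subunits Mcm4 and Mcm7 had 0.09 and -0.01, and the cyclins Ccnd2 and Ccnd1 differed, at 2.14 and -0.59. Within 250 bases before the start, GATTGG (the reverse of the CCAAT box) was found in 14 of 31 list genes with a RefSeq promoter, against 16.6% of all genes, and the CHR core TTTGAA in 9 of 31, against 18.3%. Thymocyte markers summed to more in mTEChi, as given above, with 37.5% of them called higher against 32.2% of all genes, and their part was not tested.

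Regulators of apoptosis gave 8 higher and 2 lower of 24, which is 33.3% and 8.33%, near the shares of all genes. The death-promoting Hrk was at 0.0456, 0.138 and 0.197 CPM in mTEClo and 14.6, 12.2 and 13.3 CPM in mTEChi, and the death receptor Fas at 37.9, 39.5 and 38.2 and 116, 119 and 110.3 CPM. Survival genes took both directions: Bcl2 was lower, at 96.1, 96.9 and 93.9 and 29.9, 30.8 and 29.8 CPM, and Bcl2l1, the gene of BCL-XL, higher, at 63.6, 63.4 and 54.97 and 154, 163 and 164 CPM. Cflar, the inhibitor of caspase 8, was higher as well (1.42).

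Interferon-stimulated genes were lower in mTEChi. Of 25, 0 were higher and 17 lower, with a median log2 fold change of -1.69. Ifit3, an antiviral effector, was at 368, 341 and 394 CPM in mTEClo and 29.3, 25.97 and 31.3 CPM in mTEChi, a log2 fold change of -3.67 (SE 0.09, edgeR adjusted p = 1.10e-11). The transcription factor Irf7, which amplifies the response, was at 532, 527 and 502 and 68.8, 69.5 and 75.2 CPM. Usp18, which ends the signal, had 0.08 (edgeR adjusted p = 0.176). Cxcl9, induced by interferon gamma, was higher at 1.47, against this direction.

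Immediate early genes, which cells switch on soon after a stimulus, were also lower in mTEChi. Of 19, 0 were higher and 17 lower. Fos was at 6104, 6081 and 6626 CPM in mTEClo and 974, 1272 and 1373 CPM in mTEChi, Jun at 6362, 6246 and 6255 and 1002, 1372 and 1459.8 CPM and Egr1 at 3787, 3576 and 3921 and 813, 964 and 1043 CPM. In each of these genes, mTEChi replicate 1 had the lowest level, and the groups did not overlap. Summed over the 19 genes, they took 31284 to 33144 CPM in mTEClo and 7554 to 10145 CPM in mTEChi.

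Junction genes changed by member. Of 23 claudins and tight junction genes, 8 were higher and 4 lower (34.8% and 17.4%), near the shares of all genes. Cldn13 was at 1.12, 0.712 and 0.9505 CPM in mTEClo and 51.3, 45.3 and 50.6 CPM in mTEChi and Cldn18, the claudin of stomach and lung, at 0, 0.0213 and 0.0655 and 4.11, 4.17 and 2.73 CPM, while Cldn1, the barrier claudin of skin, was lower at 199, 232 and 213 and 73.6, 80.5 and 78.7 CPM. Ribosomal protein genes moved little: of 82 tested 1 was higher, 0 were lower, and the median log2 fold change of -0.26 lay within the step that another scaling makes.

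**Figure D4:**
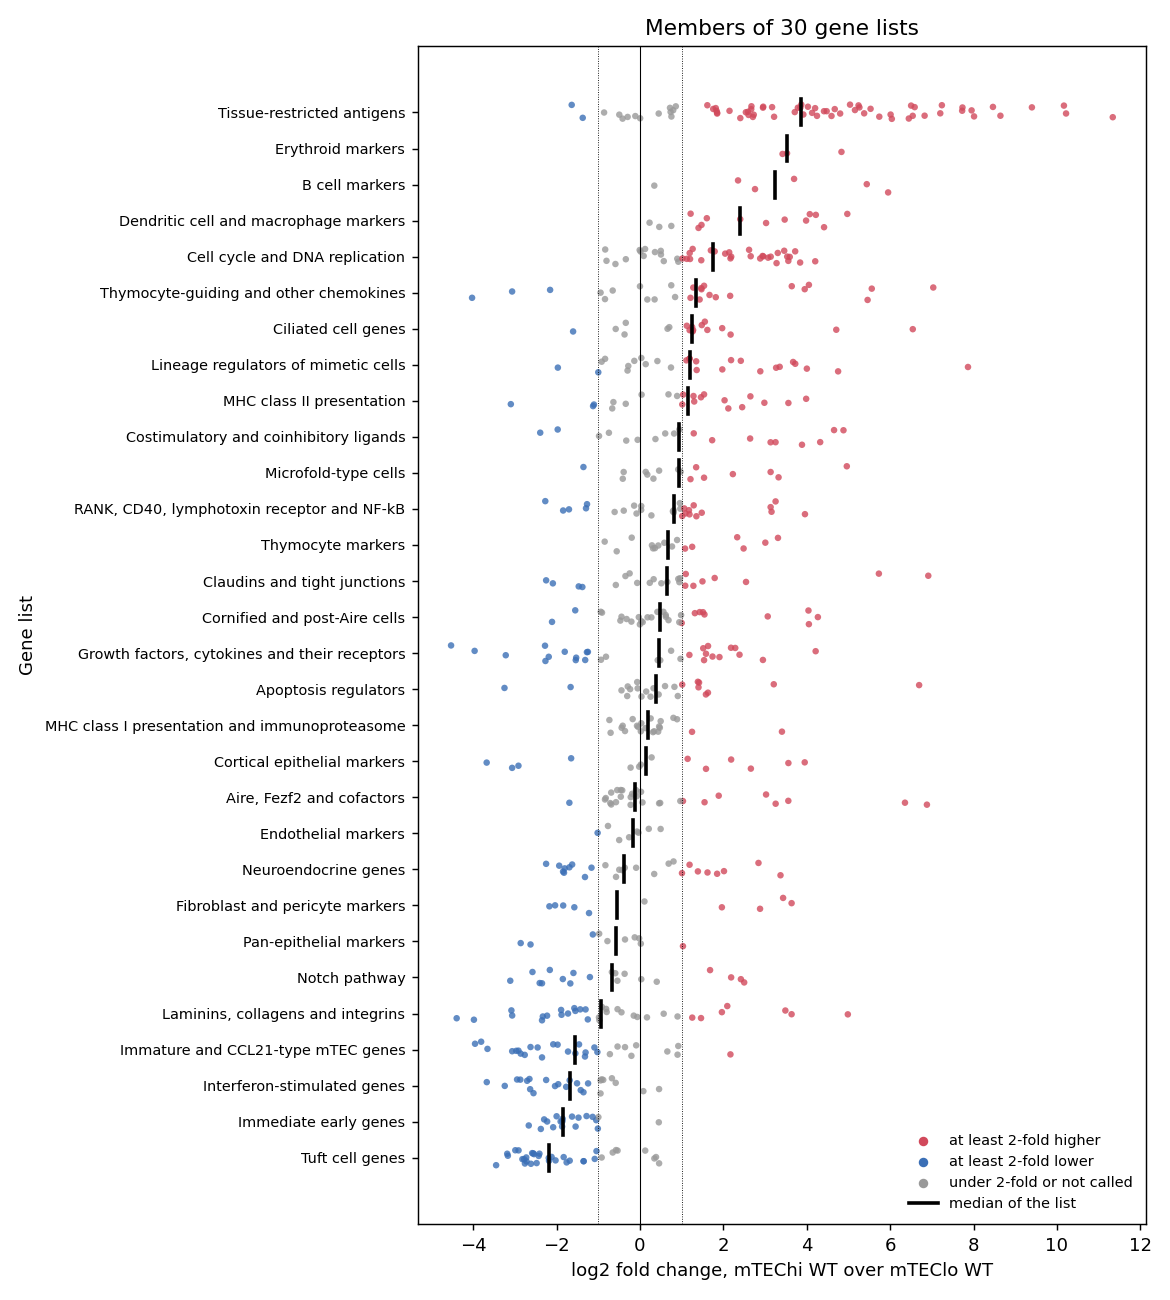
Log2 fold change of mTEChi over mTEClo for the members of 30 gene lists, one dot per gene tested, red and blue where a gene was called at least 2-fold higher or lower and grey otherwise; black bars are medians and dotted lines mark 2-fold. The medians run from -2.19 for tuft cell genes to 3.87 for tissue-restricted genes.

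Cortical genes were set beside cTEC on a second scale, CPM of the library total without TMM factors; all values of cTEC and of the medullary groups in the sentences that follow on cTEC are on it. The markers of the cortical list did not move together between the medullary groups, with 6 higher in mTEChi and 4 lower of 14. Psmb11 was at 160.2 and 138 CPM of the total in the 2 cTEC libraries, 7.38, 11.8 and 7.95 in mTEClo and 10.4, 12.8 and 9.24 in mTEChi, and Prss16, the thymus-specific serine protease of the cortex, at 1166 and 974, 42.7, 68.3 and 50.9 and 51.9, 59.03 and 52.6. Both defining genes were thus low in both medullary groups, and neither was called. Ccl25 was at 437 and 378 in cTEC, and its mTEChi libraries, at 539, 549 and 499, lay above them.

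Which medullary group lay nearer to cTEC differed by gene. For Ctsl, Il7, Cxcl12 and Ccrl1 it was mTEClo, and for Tbata, Foxn1 and Ly75 it was mTEChi. Tbata averaged 356 in cTEC, 73.3 in mTEClo and 547 in mTEChi. In the same order Foxn1 averaged 142, 78.7 and 190, and Ly75 320, 55.0 and 78.7. Ctsl was at 3670.5 and 3214 in cTEC, 1539, 1734 and 1767 in mTEClo and 231, 228 and 235 in mTEChi, and Il7 at 336 and 311, 278, 298 and 317 and 75.5, 75.2 and 66.4. For the class II chain H2-Aa, cTEC lay between, at 2422 and 2672, against 1920.1, 1989 and 2042 in mTEClo and 6550.0, 6357 and 6454 in mTEChi. Aire was as low in cTEC, at 12.9 and 10.5, as in mTEClo (16.98, 11.1 and 7.62), while Fezf2, at 50.7 and 35.6 in cTEC, was higher in mTEClo (213, 212 and 185) and highest in mTEChi (711, 689 and 709). With 2 cTEC libraries these are descriptions, with no test.

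The same contrast in KO mice, in 3 mTEChi and 3 mTEClo libraries that share none with the wild type, gave nearly the same picture. Of the 6209 genes higher in wild-type mTEChi, 6198 had the same direction in KO and 5949 (95.8%) were called there by the same rule. Of the 2373 lower genes, 2369 had the same direction and 2156 (90.9%) were called. Across genes with a mean of at least 1 CPM, the log2 fold changes of the 2 genotypes had a Pearson r of 0.979, over 16284 genes, which are not independent replicates. All members of the tuft, interferon, cell cycle and immediate early lists, and of several other lists, kept their direction in KO. So did 18321 of the 19256 genes tested, so this is not particular to these lists.

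The difference between the genotypes was tested directly in a fit of all 12 mTEC libraries. Only 2 of 19816 genes (0.0101%) passed an adjusted p of 0.05. An unadjusted edgeR p under 0.05 was found for 1029 genes, near the number that this cutoff alone gives where nothing differs. Fabp6, a bile acid-binding protein of the ileum, had a log2 fold change of 6.73 in wild type and 5.35 in KO, and Pappa2, a protease that cuts IGF-binding proteins, one of 3.04 and 3.72. Both genes were higher in mTEChi in both genotypes. Neither call held with limma voom or with the replicate number as a block, and DESeq2 called 16 genes, both of these among them. With voom and with the block, the log2 difference (KO minus wild type) was -1.372 and -1.368 for Fabp6 and 0.695 and 0.698 for Pappa2. The call of Fabp6 was lost without mTEChi KO replicate 2 (edgeR adjusted p = 0.0726) or 3 (0.0596), mTEChi wild-type replicate 2 (0.0532) or mTEClo wild-type replicate 1 (0.0995). The call of Pappa2 was kept only without mTEChi KO replicate 1, mTEClo KO replicate 2 or mTEClo wild-type replicate 3, and its adjusted p reached 0.215 without mTEChi KO replicate 2. On simulated counts the test recovered 59.1% of 2-fold differences among 19651 genes, so many 2-fold differences, as well as smaller ones, can be missed. Changed genes that the filter removed were left out of that share.

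**Figure D5:**
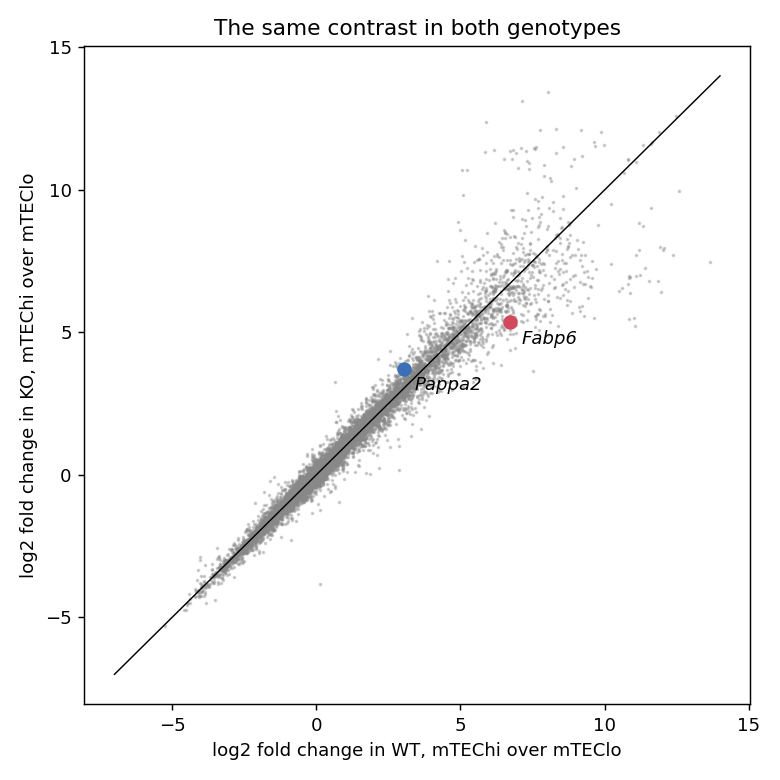
Log2 fold change of mTEChi over mTEClo in wild type (x axis) and in KO (y axis) for 16284 genes with a mean of at least 1 CPM; the line marks equality. Most genes lie along the line; Fabp6 (red) lies below it and Pappa2 (blue) above it.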

How the data were processed

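RNA was sequenced with an unstranded kit, and read counts per gene were deposited by the authors; HTSeq 0.5.4p1, CASAVA 1.8.2 and mm10 are named in the submitters' processing notes. The aligner, the annotation and the treatment of reads with several matches are not given in the sources used here. RPKM values deposited by the authors were used only as an alternative, as log2(RPKM + 0.1) with limma 3.58.1.

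The 5 entries that name no gene were dropped from the 23420 gene entries, and 27 date-like names were not used as symbols. Counts were tested with edgeR 4.0.16 (TMM, filterByExpr, quasi-likelihood) on the 6 libraries alone, with Benjamini-Hochberg adjustment over 19256 genes. CPM are TMM-scaled. On simulated counts the fit recovered 84.0% of 2-fold changes among 17155 genes, with 13 unchanged genes called. The difference between genotypes was fitted on 12 libraries. DESeq2 1.42.0, limma voom, other scalings, no filter, other sample sets and single omitted libraries were the alternatives. Genes outside the lists were named by the 10 largest folds, smallest p-values and largest CPM differences in each direction. The comparison, the gene lists and the rules were chosen with earlier results of these data known. Promoters came from RefSeq (GRCm38.p6). Some genes that the rule or the lists name are not reported here.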

Additional observations from a re-analysis of the deposited data

Results flagged for a closer look

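Fabp6 was flagged because its difference between mTEChi and mTEClo differed between the genotypes by the interaction term of the 12-library fit (KO minus wild type, -1.37 on the log2 scale, edgeR adjusted p = 0.0116). On the scale of library totals without TMM factors (CPM), it was at 0.376, 0.483 and 0.368 in wild-type mTEClo, at 1.34, 1.03 and 1.07 in KO mTEClo, at 56.2, 51.2 and 47.7 in wild-type mTEChi and at 58.6, 54.8 and 53.1 in KO mTEChi. The 2 genotypes were apart in mTEClo, where Fabp6 was low, and overlapped in mTEChi.

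Pappa2 was flagged by the same test in the other direction (0.70, edgeR adjusted p = 0.0226). On the same scale it was at 7.00, 6.84 and 6.55 in wild-type mTEClo, at 4.72, 4.68 and 4.27 in KO mTEClo, at 68.4, 67.6 and 61.7 in wild-type mTEChi and at 71.1, 73.3 and 70.1 in KO mTEChi. The genotypes did not overlap in either population. These 2 calls are 0.0101% of the genes tested.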

How the results depend on the processing

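Among 239 of the genes named in the text or by the rule, the 201 called at least 2-fold kept their direction in each alternative checked by gene. The test against a 2-fold change and the RPKM values were not checked by gene. The adjusted p was above 0.05 for Hoxa9 with DESeq2 (0.0655) and for Krt10 (0.0546) and Notch4 (0.0790) in the 16-library fit. Sign changes were found for H2-K1 (0.17 with library totals, 0.19 with the upper quartile), Krt8 (0.22, 0.24), Mcm7 (0.23, 0.25), Pdcd1lg2 (0.18, 0.20) and Xrcc6 (0.0177, 0.0358), all small beside the shift of these scalings. Genes lower in mTEChi numbered 1881 when tested against a 2-fold change, 5172 with the upper quartile and 5311 with library totals. Interaction calls numbered 16 with DESeq2, 0 with limma voom and 0 with a replicate block, and 0 to 4 with single libraries left out. The gain in genes detected was 2786 at 10 counts in place of 1, and the difference in the share of the most abundant genes was -1.34 for 100 genes in place of 10. With single libraries left out, 8224 to 8445 genes were higher and 6784 to 7318 lower (6261 to 6493 and 2262 to 2466 at 2-fold), the gain in genes detected was 2188 to 2421, and the top 10 share differed by 0.498 to 0.648 points. Of the list and family counts, 1447 stayed within 1.5 times of the reported value and 53 did not. Among the latter, lower genes of the MHC class II list numbered 1 in place of 3 with library totals or the upper quartile. Same-numbered libraries did not deviate together (r of -0.0352 to 0.0347, against -0.0541 to 0.0680 for libraries of different number). This gives no sign of pairing by number but cannot exclude one, since technical spread could hide it. With the replicate block 7939 genes were higher and 6944 lower. Depth limits genes under 3 counts, at most 0.0431 CPM, and intervals cover counting error only. With the mice behind each library not stated, the spread between mice is unknown.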
